A study of Mus musculus with 15 samples.

Results

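The cadherins and transcription factors of the epithelial-mesenchymal transition (EMT) were followed in 105K tumors. The members were the rows of the expression table whose symbols are CDH1, CDH2, CDH6, CDH11, ZEB1, ZEB2, SNAI1, SNAI2, TWIST1 and PRRX1. All 10 were present among 24891 genes, 4 of them cadherins and 6 transcription factors. 105K cells lack Tsc2 (Tsc2-/-), having been derived from a kidney tumor that arose in a Tsc2+/- animal, and every group here was grown from it under the skin of wild-type C57BL/6J mice, 6-week-old males according to the methods. The 15 libraries formed 5 groups of 3. Bulk tumors carried either sh-NC, a non-targeting shRNA, or the first of a pair of shRNAs against B7-H3, an immune checkpoint protein encoded by CD276. Sorted cells came from tumors of these same kinds and, as a further group, from tumors with the other shRNA. The shRNAs bind separate regions of the mRNA and are written sh-B7-H3 (1) for the first and sh-B7-H3 (2) for the other. The sort kept the cells left unlabelled after antibodies and magnets had removed non-tumor cells. According to the methods the transduced 105K cells were heterogeneous pools, selected and kept in puromycin. How many pools were made with each shRNA is not given in the sources used here. The comparisons ask whether these genes differ between tumors labelled sh-B7-H3 and sh-NC, and whether the same is seen in the isolated tumor cells.

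Cadherins are transmembrane proteins that join neighbouring cells through their outer repeats and are anchored to actin inside the cell through beta-catenin and alpha-catenin. E-cadherin, the product of CDH1, is the classical cadherin of epithelia, whereas N-cadherin (CDH2) and cadherin-11 (CDH11) are typical of mesenchymal cells, and cadherin-6 (CDH6) marks the embryonic kidney and many renal carcinomas. In an EMT, epithelial cells lower E-cadherin and tight junction proteins and take up mesenchymal genes. ZEB1, ZEB2, SNAI1 (Snail) and SNAI2 (Slug) are zinc finger repressors that bind E-box sequences in the promoters of epithelial genes. TWIST1, a basic helix-loop-helix factor, also binds E-boxes, and PRRX1 is a homeobox factor of embryonic mesenchyme and of fibroblasts. All of these factors are also made by normal stromal cells.

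Promoter sequences from RefSeq (build GRCm38.p6) matched 5 of the 10 members, CDH6, TWIST1, PRRX1, SNAI1 and ZEB2, and did not include CDH1, CDH2, CDH11, ZEB1 or SNAI2. Those of CDH6, TWIST1 and PRRX1 are shown because these genes changed between shRNA groups, and that of SNAI1 because it holds the E-box form that the SNAI and ZEB repressors favour. Each run is the 150 bases before an annotated transcript start, 5′ to 3′ on the gene's own strand, with every match to CANNTG, the letters of an E-box, in capitals. The motif reads alike on both strands. The starts used for CDH6 and PRRX1 lie inside the outer limits of these genes, which are chr15:13028699-13176407 and chr1:163245119-163315145.
CDH6, chr15:13173676-13173825, minus strand: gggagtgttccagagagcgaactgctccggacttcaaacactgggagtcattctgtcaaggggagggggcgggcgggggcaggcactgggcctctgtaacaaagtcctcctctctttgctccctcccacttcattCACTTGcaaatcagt
TWIST1, chr12:33957521-33957670, plus strand: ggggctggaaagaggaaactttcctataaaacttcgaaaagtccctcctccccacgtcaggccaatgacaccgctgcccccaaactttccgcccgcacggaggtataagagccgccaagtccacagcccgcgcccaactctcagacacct
PRRX1, chr1:163313651-163313800, minus strand: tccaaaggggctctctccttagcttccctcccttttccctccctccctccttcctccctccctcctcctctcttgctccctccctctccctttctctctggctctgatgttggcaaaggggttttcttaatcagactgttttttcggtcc
SNAI1, chr2:167538045-167538194, plus strand: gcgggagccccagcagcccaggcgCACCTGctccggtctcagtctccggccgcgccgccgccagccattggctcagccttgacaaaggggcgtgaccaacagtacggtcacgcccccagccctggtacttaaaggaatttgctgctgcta
The CDH6 window held 1 match, CACTTG, whose first base lies 15 bases before the start. The SNAI1 window held 1 match, CACCTG, at 126 bases before the start. In the windows of TWIST1 and PRRX1 these letters did not occur. Of 32817 RefSeq promoter windows of this length, 47.7% held CANNTG and 10.6% held CACCTG or its reverse complement CAGGTG.

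Values are scaled FPKM, the reads of a gene divided by its length and by the library's total, after a further scaling of each library, and because they are per length they may be compared between genes. Depth relative to the deepest library ranged from 0.468 to 1, read totals are unknown, and the single gene MIR6236 took 6.01% to 79.7% of the summed FPKM, depending on the library, which is why the further scaling was used. CD276, the targeted gene, was 7.29, 14.0 and 11.5 in sorted cells with sh-B7-H3 (1) and 34.0, 20.0 and 17.3 with sh-NC, without overlap, and its log2 fold change of -1.04 ± 0.29 (adjusted p = 0.0547) just missed the threshold used below. In the sorted cells labelled sh-B7-H3 (2) it was 23.3, 25.4 and 25.7, a difference of 0.12 (adjusted p = 0.775) that goes against the label. In the bulk tumors labelled sh-B7-H3 (1) it was 22.3, 17.8 and 24.4 against 20.8, 23.2 and 23.5, with overlap and no detectable difference (-0.07, adjusted p = 0.709). Sorted libraries held the epithelial markers (EPCAM, CLDN4 and 4 keratins) at summed levels of 837 to 2378 and the renal tubule markers at 138 to 195, while summed leukocyte markers were 27.3 to 86.4 in 8 of 9. The exception was replicate 1 of the sorted cells labelled sh-B7-H3 (2), with leukocyte markers at 278, just below the 295 to 530 of bulk tumors, and endothelial markers at 23.4 against at most 0.781 in the other sorted libraries. Values of the members that rest on this library are given with and without it.

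CDH1 was the most abundant member in all 5 groups, at means of 171 to 276 scaled FPKM, and it did not overlap with the next gene in any of them. Of the summed FPKM of CDH1, CDH2, CDH6 and CDH11, CDH1 made up 98.1% to 98.6% in bulk sh-NC tumors and 98.9% to 99.3% in sorted sh-NC cells. The share was 99.7% in each sorted sh-B7-H3 (1) library, 93.0% to 96.6% in bulk tumors labelled sh-B7-H3 (1) and 92.8% to 97.3% in sorted cells labelled sh-B7-H3 (2). The cadherin that took most of the remainder was CDH11 in the former. In the latter it was CDH6 in replicates 2 and 3, while in replicate 1 CDH6 and CDH11 stood at 2.18 and 2.12. In sorted sh-NC cells ZEB1 and ZEB2 followed, at 8.92 ± 2.08 and 4.98 ± 1.88 (SD, n = 3), and their libraries overlapped. CDH6 came next at 1.82 ± 0.223, above SNAI1, PRRX1, CDH11, CDH2, TWIST1 and SNAI2, all of which had means below 1. Among these low genes the neighbours SNAI1 and PRRX1, PRRX1 and CDH11, CDH2 and TWIST1, and TWIST1 and SNAI2 overlapped. The order differed in bulk tumors labelled as carrying (1), where CDH11, at 8.81 ± 3.26, ranked second, with libraries that overlapped those of ZEB2 and ZEB1.

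**Figure D1:**
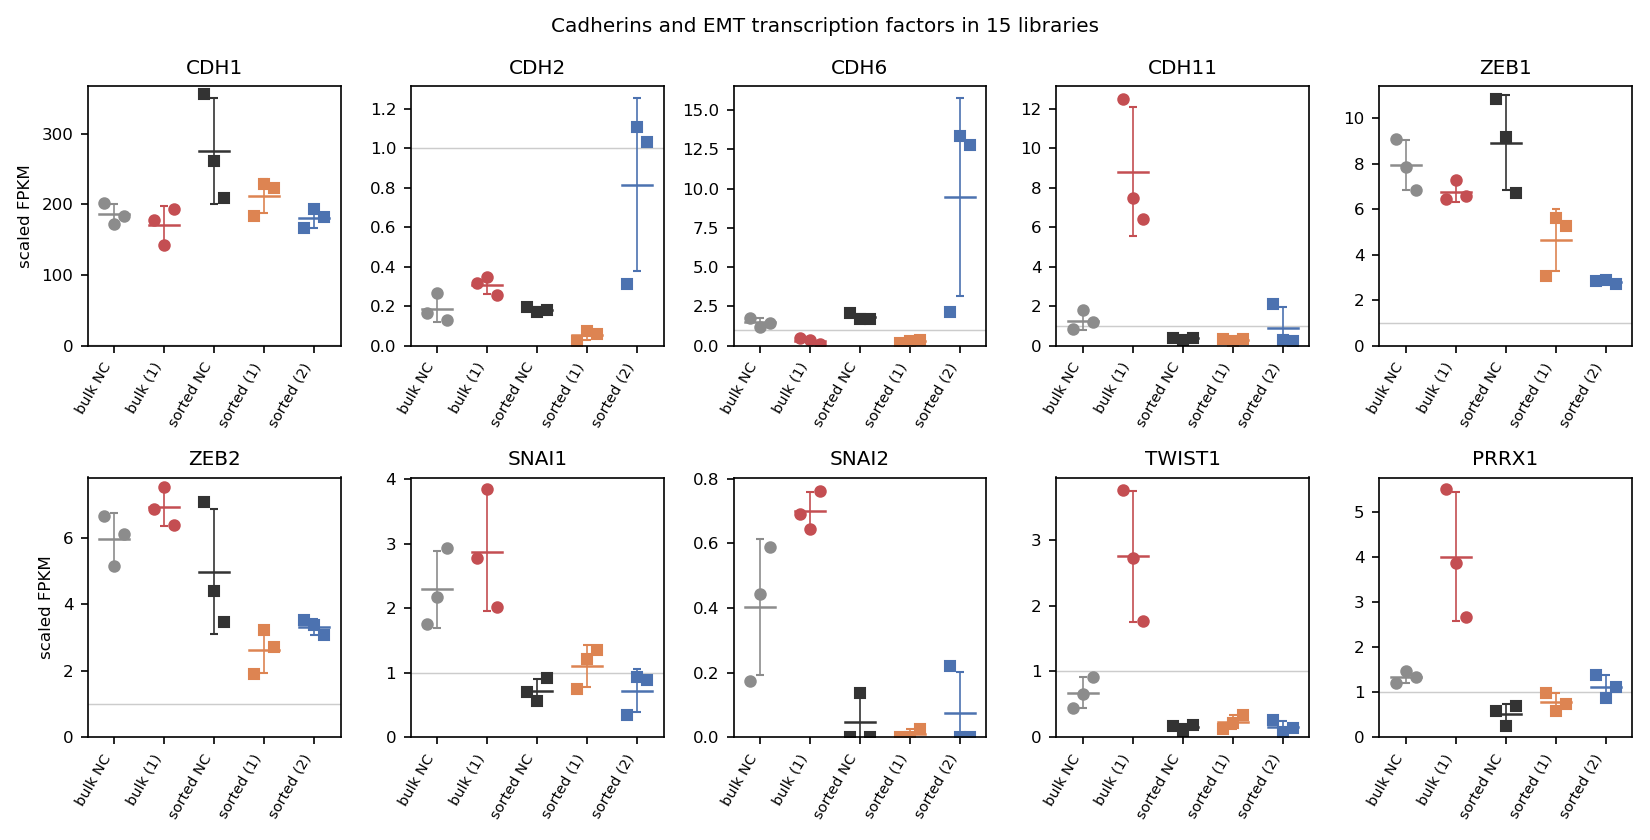
Scaled FPKM (vertical axis, from 0, with its own range in each panel) of the 10 genes in the 15 libraries, which are grouped along the horizontal axis by material and shRNA label, with each point a library, each bar a group mean and each whisker 1 SD (n = 3); the grey line marks 1 scaled FPKM. CDH1 lies between 142 and 357 in every library, CDH11, TWIST1 and PRRX1 stand apart in bulk tumors labelled sh-B7-H3 (1), and CDH6 reaches 13.4 in sorted cells labelled sh-B7-H3 (2).

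Testing was limited to genes with 1 scaled FPKM or more in 3 or more of the libraries compared. It was done on log2(scaled FPKM + 1) with limma, and a gene was called changed at a Benjamini-Hochberg adjusted p below 0.05. Fold changes are on this scale, which understates the change of low genes. For shRNA (1) in sorted cells, compared with sh-NC, 4 of the 10 members passed the filter and 1 of them, CDH6, was called, where 13.4% of all genes tested were called. With the label sh-B7-H3 (2), 4 passed and 1, ZEB1, was called, against 19.1% of all genes. With both labels as 1 group of 6, again 4 passed and 1, ZEB1, was called, against 20.5% of all genes. With 4 members tested, these counts were not set apart from the background shares. The 3 comparisons share the same 3 sh-NC libraries. The labels do not say that the libraries came from separate animals, although the methods speak of biological samples, and the p-values measure the spread between these libraries.

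CDH1 was high in sorted cells whatever the shRNA. Its values were 357, 261 and 210 with sh-NC, 184, 229 and 223 with sh-B7-H3 (1), and 166, 194 and 182 with the label sh-B7-H3 (2). The (1) libraries overlapped those of sh-NC and the (2) libraries all lay below them. The log2 fold change was -0.35 ± 0.22 (SE, adjusted p = 0.394) for (1) and -0.58 ± 0.21 (adjusted p = 0.103) for (2), and neither passed the threshold. For both together it was -0.46 ± 0.17 (adjusted p = 0.0854), with a 95% interval from -0.84 to -0.08. Leaving out sorted sh-NC replicate 3, the lowest of the controls, gave -0.64 with an adjusted p of 0.0271.

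CDH6 lay below the controls with sh-B7-H3 (1) and above them with the label sh-B7-H3 (2). It was 2.08, 1.69 and 1.69 scaled FPKM with sh-NC and 0.177, 0.305 and 0.351 with sh-B7-H3 (1). All 3 libraries with sh-B7-H3 (1) were below all controls, and the mean was 6.55-fold lower. The fitted log2 fold change was -1.14 ± 0.12 (adjusted p = 0.000427). It was not called in a single fit of all 15 libraries (adjusted p = 0.0655). CDH6 had passed the filter here through the sh-NC libraries alone, so that a difference was built into its being tested. With the label sh-B7-H3 (2) it was 2.18, 13.4 and 12.8, in each library above all controls, and the mean was 5.20-fold higher. The fold change was 1.61 ± 0.53 (adjusted p = 0.0755), which missed the threshold, although a single fit of all 15 libraries (adjusted p = 0.00841) and FPKM as deposited (adjusted p = 0.00200) put it past. Replicate 1, the library with leukocyte and endothelial markers, was the one near the controls, and without it the fold change was 2.32 (adjusted p = 0.000359) and the mean of the remaining pair, 13.1, was 7.20-fold that of sh-NC.

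CDH2 and CDH11 did not reach the filter in sorted cells. CDH2, the N-cadherin gene, was 0.198, 0.171 and 0.180 with sh-NC and 0.0234, 0.0730 and 0.0608 with sh-B7-H3 (1). With the label sh-B7-H3 (2) it was 0.313, 1.11 and 1.03. As for CDH6, the (1) libraries were all below and the (2) libraries all above the controls, at levels where depth limits precision, and the exact two-sided permutation p was 0.1 for each, the smallest that 3 libraries against 3 allow. CDH11 was 0.393, 0.314 and 0.417 with sh-NC and 0.330, 0.221 and 0.356 with sh-B7-H3 (1), groups that overlapped. With the label sh-B7-H3 (2) it was 2.12, 0.309 and 0.243. The high value belonged to replicate 1, and the mean of the other pair was 0.276.

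The (1) and (2) labels were also compared directly. Of the 4 members tested, CDH6 was called, against 3.40% of all genes, with a log2 difference of -2.75 ± 0.53 (adjusted p = 0.0370). It passed the filter through the (2) libraries alone. Replicate numbers of these groups deviated together, and with the numbers as blocks the adjusted p of CDH6 was 0.0245 while the share of all genes called rose to 16.6%. The call was lost when any library but (2) replicate 1 was left out, with adjusted p-values up to 0.131 when the tested genes were held fixed, and without that replicate the difference was -3.47 with an adjusted p of 8.81e-06. ZEB1 was 0.53 ± 0.18 higher with (1) (adjusted p = 0.150), or 0.75 without (1) replicate 1 (adjusted p = 0.0202), and the differences of CDH1 (0.23, interval -0.06 to 0.51) and ZEB2 (-0.27, interval -0.62 to 0.07) did not pass either.

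ZEB1 was lower under both labels in sorted cells. It was 10.8, 9.18 and 6.72 scaled FPKM with sh-NC, 3.08, 5.61 and 5.26 with sh-B7-H3 (1), and 2.86, 2.90 and 2.69 with the label sh-B7-H3 (2). None of these 6 libraries overlapped a control. The log2 fold change was -1.09 ± 0.22 for both together (adjusted p = 0.00590), the mean being 2.39-fold lower. Taken singly, it was -1.36 ± 0.17 for (2) (adjusted p = 0.00126) and -0.82 ± 0.23 for (1) (adjusted p = 0.0546), the latter just short of the threshold. Without sorted sh-NC replicate 3 the value for (1) was -0.99 (adjusted p = 0.0226). Without the (2) library that held leukocyte markers the value for both was -1.04 (adjusted p = 0.0127). The fold change for both ranged from -1.26 to -0.95 when each of the 9 libraries was left out in turn, with adjusted p-values of at most 0.0319. Among the genes called in this comparison 12.6% of all tested were higher and 7.92% lower.

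ZEB2 was 7.08, 4.39 and 3.46 with sh-NC, 1.90, 3.23 and 2.72 with sh-B7-H3 (1) and 3.52, 3.39 and 3.06 with the label sh-B7-H3 (2). The (1) libraries lay below all controls and the (2) libraries overlapped them. For both together the log2 fold change was -0.56 ± 0.19 (adjusted p = 0.0681, interval -0.99 to -0.13). Without sorted sh-NC replicate 3 it was -0.75 (adjusted p = 0.0302), and a single fit of all 15 libraries gave an adjusted p of 0.0202. Summed leukocyte markers were 27.3 to 37.6 in sorted sh-NC cells and 54.0 to 278 in the 6 other sorted libraries, 1 of 3 of them tested being higher, CD68 (1.04 ± 0.16, adjusted p = 0.000960). Summed macrophage markers were 30.7 to 44.1 and 61.5 to 391, with 2 of 5 higher, CD68 and the receptor CSF1R (2.18 ± 0.40, adjusted p = 0.00319). Without (2) replicate 1 the highest sums were 86.4 for leukocyte and 94.6 for macrophage markers, and the fold changes 1.01 for CD68 (adjusted p = 0.00245) and 1.88 for CSF1R (adjusted p = 9.92e-05). Outside that replicate the leukocyte sums were mostly CD68. It was 25.0 to 33.3 in sorted sh-NC cells, 55.7 to 83.05 with sh-B7-H3 (1) and 50.9 to 70.4 with the label sh-B7-H3 (2). The other tested markers of the leukocyte and macrophage lists were not called without that replicate. They were FCER1G (-0.20), TYROBP (0.40), C1QA (-0.07), C1QB (-0.16) and C1QC (0.14). The part of leukocytes and macrophages in the ZEB1 and ZEB2 values was not tested.

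The remaining factors were at or under about 1 scaled FPKM in sorted cells and were not tested there. SNAI1 was 0.696, 0.561 and 0.912 with sh-NC, 0.743, 1.22 and 1.35 with sh-B7-H3 (1), and 0.343, 0.941 and 0.884 with the label sh-B7-H3 (2), and all groups overlapped. TWIST1 ranged from 0.0848 to 0.344 and SNAI2 from 0 to 0.221 over the 9 sorted libraries, SNAI2 being listed at 0 in 6 of them. PRRX1 was 0.570, 0.249 and 0.692 with sh-NC and 0.990, 0.584 and 0.740 with (1), which overlapped. With the label sh-B7-H3 (2) it was 1.38, 0.870 and 1.12, above all controls (exact permutation p = 0.1). Summed fibroblast markers were also higher in these libraries, at 131 to 190, than in sorted sh-NC cells, at 56.0 to 99.4. Of the 8 tested, 3 were called, all of them collagen genes and higher. POSTN (-0.46, adjusted p = 0.512) and PDGFRB (-0.18, adjusted p = 0.779) went the other way without a call. The part of fibroblasts in the PRRX1 values was not tested.

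**Figure D2:**
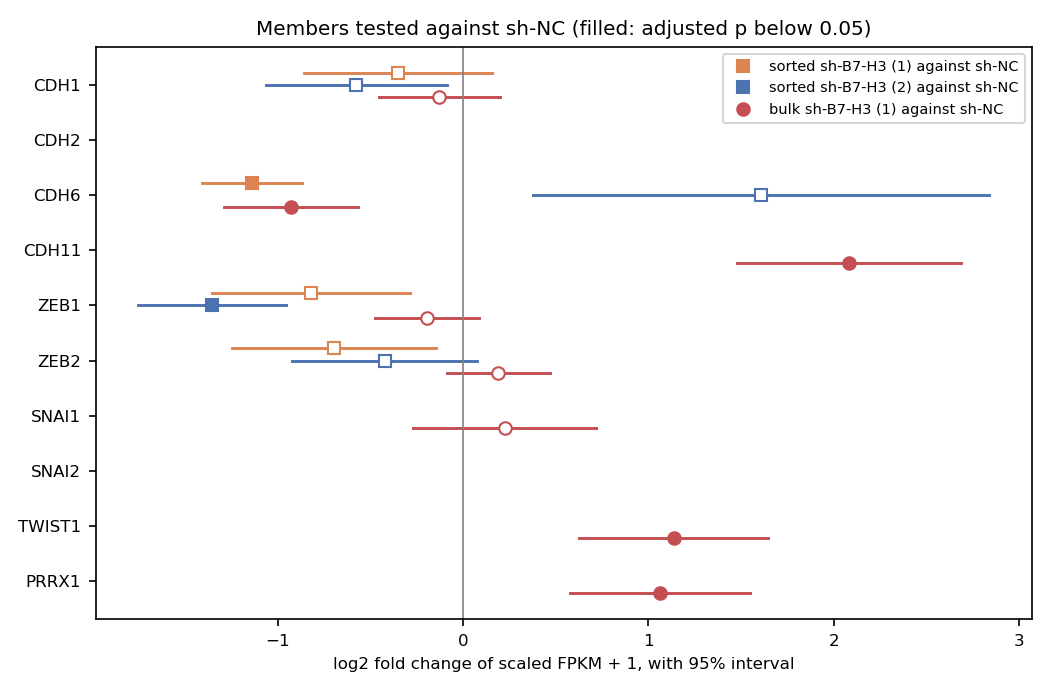
Log2 fold changes of scaled FPKM + 1 (horizontal axis) against sh-NC for the members that passed the filter (vertical axis), in sorted cells with sh-B7-H3 (1), sorted cells labelled sh-B7-H3 (2) and bulk tumors labelled sh-B7-H3 (1), with lines for 95% intervals and filled symbols for adjusted p below 0.05. CDH6 lies at -1.14 and 1.61 in the sorted groups and at -0.93 in bulk tumors, ZEB1 at -0.82, -1.36 and -0.20, and CDH2 and SNAI2 have no symbol because they were not tested.

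Bulk tumors contain stroma as well as tumor cells, and in them fewer cells of a type and less RNA per cell cannot be told apart. Between the bulk groups, labelled (1) and sh-NC, 8 of the 10 members passed the filter and 4 were called, 3 higher and 1 lower, where 21.4% of all genes were called, 12.8% higher and 8.52% lower. The higher ones were CDH11, TWIST1 and PRRX1, and the lower one was CDH6. CDH11 and TWIST1 stood at 1 or more in all 3 libraries of the (1) group, and TWIST1 in none of the sh-NC group, so its count among those called was partly fixed by the filter. CDH2 and SNAI2 were not tested.

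CDH11, a cadherin of mesenchyme and bone-forming cells, was 12.5, 7.49 and 6.42 in bulk tumors labelled sh-B7-H3 (1) and 0.825, 1.80 and 1.19 in those with sh-NC. The groups did not overlap, and the mean was 6.93-fold higher. The log2 fold change was 2.08 ± 0.26 (adjusted p = 0.00438). PRRX1 was 5.49, 3.86 and 2.65 against 1.21, 1.46 and 1.33, without overlap, with a log2 fold change of 1.06 ± 0.21 (adjusted p = 0.0160). TWIST1 was 3.76, 2.72 and 1.76 against 0.448, 0.655 and 0.918, again without overlap, with 1.14 ± 0.22 (adjusted p = 0.0151). With the tested genes held fixed, PRRX1 lost its call when any 1 of the sh-NC libraries was left out (adjusted p at most 0.0668), and TWIST1 when bulk sh-NC replicate 2 was left out (adjusted p = 0.0539) or replicate numbers were used as blocks (adjusted p = 0.0523).

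Fibroblast markers moved with these 3 genes. Of the 10 on the list, 9 were tested and 7 were higher in bulk tumors labelled sh-B7-H3 (1), with a median log2 fold change of 1.51 over the 9 against 0.02 over all genes. COL1A1, a chain of type I collagen, rose by 2.16 ± 0.38 (adjusted p = 0.0121), and POSTN, a matrix protein of activated fibroblasts, by 1.51 ± 0.22 (adjusted p = 0.00673). The summed markers were 440 to 882 in the 3 tumors labelled (1) and 148 to 266 with sh-NC. Within the former group CDH11, TWIST1 and PRRX1 each had their highest value in the library with the highest sum, replicate 1, and their lowest in that with the lowest sum, replicate 3. Skeletal muscle markers were higher too, in 5 of 8 genes, with sums of 40.4 to 794 against 4.42 to 24.1, and their highest sum was in replicate 2. The part of either marker list in the CDH11, TWIST1 and PRRX1 values was not tested.

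**Figure D3:**
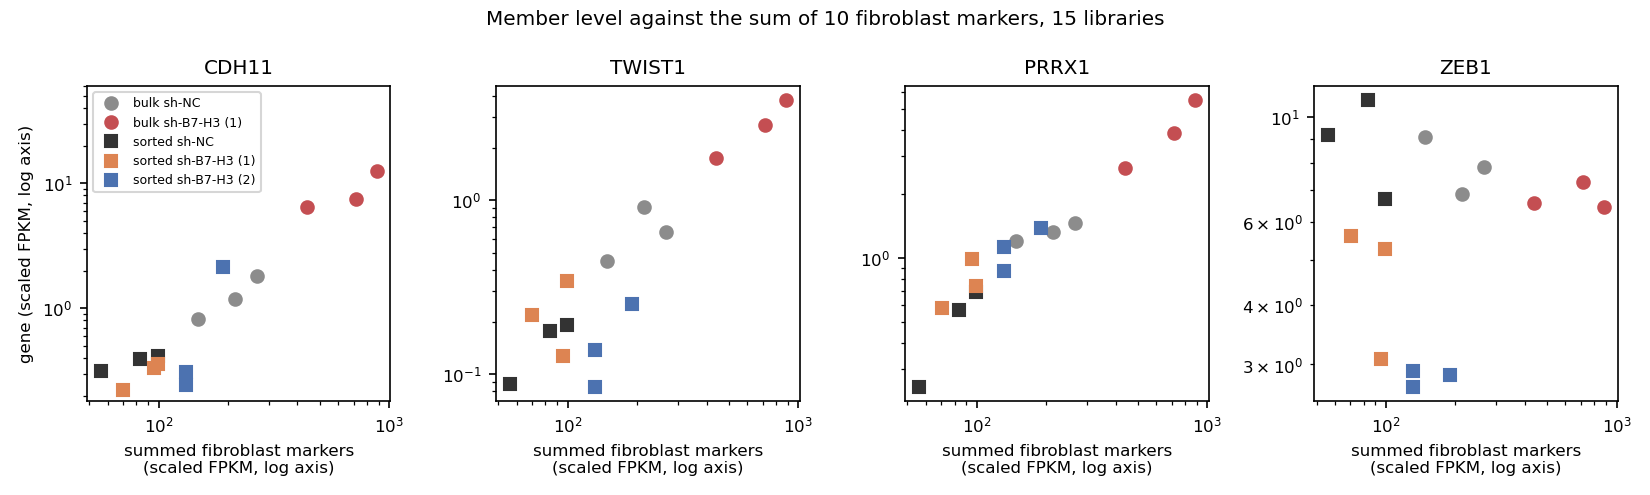
Scaled FPKM of CDH11, TWIST1, PRRX1 and ZEB1 (vertical log axis) against the summed scaled FPKM of 10 fibroblast markers (horizontal log axis), with 1 point for each of the 15 libraries, circles for bulk tumors and squares for sorted cells. The 3 bulk libraries labelled sh-B7-H3 (1) are at the upper right for CDH11, TWIST1 and PRRX1, with sums of 440 to 882, whereas ZEB1 is highest, at 10.8, in a sorted sh-NC library with a sum of 83.3.

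Among the other members of bulk tumors CDH6 was called. It was 0.481, 0.334 and 0.119 with the label sh-B7-H3 (1) against 1.79, 1.21 and 1.48, its mean 4.79-fold lower, without overlap and in the direction of the sorted cells, with a log2 fold change of -0.93 ± 0.15 (adjusted p = 0.00958), not called in a single fit of all 15 libraries (adjusted p = 0.122). It too passed the filter through the sh-NC libraries alone. CDH1 was 178, 142 and 193 against 202, 173 and 183, overlapping, with a difference of -0.13 (interval -0.45 to 0.20). ZEB1 was 6.46, 7.27 and 6.57 against 9.08, 7.85 and 6.86, and its difference of -0.20 (interval -0.47 to 0.08) was not called. ZEB2, at 6.88, 7.54 and 6.39 against 6.66, 5.15 and 6.11, differed by 0.19 (interval -0.09 to 0.47). SNAI1 was 2.78, 3.85 and 2.01 against 1.76, 2.18 and 2.94, a difference of 0.23 (interval -0.27 to 0.72). The untested SNAI2 was 0.692, 0.643 and 0.763 against 0.175, 0.444 and 0.588, without overlap, and CDH2 was 0.319, 0.346 and 0.258 against 0.168, 0.267 and 0.131, with overlap.

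Whether the difference between the sh-B7-H3 (1) label and sh-NC was itself different between materials was tested as an interaction. In the bulk arm CD276 did not detectably differ, as given above. Bulk values include stroma, so the CD276 level of the tumor cells in that arm is not known. The interaction of CD276 itself was -0.97 ± 0.35 (adjusted p = 0.276). Of the 8 members tested, CDH11 was called, against 0.464% of all genes. It was below 1 in all 6 sorted libraries and passed the filter through the bulk libraries alone, so that a difference was in part built into its being tested. Its difference was 2.16 ± 0.29 log2 units lower in sorted cells than in bulk tumors, written -2.16 (adjusted p = 0.0102). In a single fit of all 15 libraries the adjusted p was 0.0617. For TWIST1 the difference was -1.05 ± 0.25 (adjusted p = 0.113, or 0.0193 without bulk (1) replicate 3 with the tested genes held fixed), for PRRX1 -0.82 ± 0.27 (adjusted p = 0.246) and for ZEB2 -0.89 ± 0.29 (adjusted p = 0.241), which did not pass with all 12 libraries. For ZEB1 it was -0.63 ± 0.28 (adjusted p = 0.337), so its lower level in sorted cells alone was not shown to be particular to them. CDH6 differed by -0.21 (interval -0.62 to 0.20).

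Bulk and sorted material were compared within each shRNA label. With sh-NC, 2 of 6 members tested were called, both higher in bulk tumors. Of all 11418 genes tested 16.9% were called, 1184 of them higher and 740 lower. SNAI1 was 1.76, 2.18 and 2.94 in bulk tumors and 0.696, 0.561 and 0.912 in sorted cells, a log2 difference of 0.92 ± 0.16 (adjusted p = 0.00785). PRRX1 differed by 0.64 ± 0.14 (adjusted p = 0.0198). Both had passed the filter through the bulk libraries alone. With sh-B7-H3 (1), 5 of 7 members tested were called, all higher in bulk tumors. Of all 11677 genes tested 38.2% were called, 2464 of them higher and 2000 lower. The 5 members were CDH11 (2.86 ± 0.22, adjusted p = 0.000132), TWIST1 (1.58 ± 0.20, adjusted p = 0.00167), PRRX1 (1.46 ± 0.21, adjusted p = 0.00289), ZEB2 (1.15 ± 0.16, adjusted p = 0.00221) and SNAI1 (0.87 ± 0.20, adjusted p = 0.0144). ZEB2 was the one of these with 1 or more in every library of both materials, at 6.39 to 7.54 in bulk tumors and 1.90 to 3.23 in sorted cells. CDH11, TWIST1 and PRRX1 had passed the filter through the bulk libraries alone, so that a difference was in part built into their being tested. ZEB1 (0.49 ± 0.19, adjusted p = 0.0714) and CDH1 (-0.31 ± 0.15, adjusted p = 0.138) were not called.

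Markers of the cells that the sort removes differed in the same comparisons. With sh-NC, 7 of 9 fibroblast, 7 of 7 leukocyte, 7 of 7 macrophage and 6 of 6 endothelial markers tested were higher in bulk tumors. Of all 11418 genes tested, 1184 were higher. All endothelial markers were under 1 scaled FPKM in the sorted sh-NC libraries. So were the markers PTPRC, ITGAM, TYROBP, LAPTM5, CORO1A, ADGRE1, MRC1 and THY1. Those of them that were tested had passed the filter through the bulk libraries alone, so that a difference was in part built in. PTPRC, the gene of the common leukocyte antigen CD45, was 5.27 to 6.36 in bulk sh-NC tumors and 0.0168 to 0.145 in sorted sh-NC cells, and CD3E was at 0 in all 3 of the latter. Fibroblast markers were lower but not absent in sorted cells. THY1 was 0.464 to 0.610 against 13.4 to 16.7, while DCN was 17.1 to 47.2 in sorted sh-NC cells and 6.36 to 50.6 in bulk tumors. Skeletal muscle markers went the other way with sh-NC, 7 of 7 tested being lower in bulk tumors, with sums of 4.42 to 24.1 against 67.8 to 123.4 in sorted cells. The part of these cells in the bulk levels of ZEB2, SNAI1, PRRX1, CDH11 and TWIST1 was not tested.

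The other genes of the program were taken from lists of related genes. Among 9 factors that promote the epithelial state 7 were tested, and all 7 were higher in sorted cells with both labels against sh-NC, with a median log2 fold change of 2.06 against 0.01 over all genes. GRHL2, a grainyhead factor known as an opponent of ZEB1, rose by 2.06 ± 0.14 (adjusted p = 3.66e-06). ELF3 (2.38) and EHF (2.42), both ETS factors of epithelia, and ESRP2 (1.76), a regulator of epithelial splicing, rose as well. Of 12 epithelial genes described as targets of the ZEB and SNAI repressors, 11 were higher, with a median of 1.12. They included CLDN7, a tight junction claudin (3.45 ± 0.18, adjusted p = 7.21e-07), the adhesion protein EPCAM (2.90), the GTPase RAB25 (2.76) and the mucin MUC1 (2.72). CDH1, the best known target of these factors, was not on that list and did not pass the test in the same comparison. In bulk tumors labelled sh-B7-H3 (1), 7 of 7 epithelial factors and 9 of 12 epithelial targets were higher, the latter 5 of 12 with FPKM as deposited. Of the 6 epithelial markers, 5 were higher in sorted cells, among them the keratins KRT19 (1.64), KRT7 (1.44) and KRT18 (0.99), and 3 in bulk tumors. Of 5 renal tubule markers tested 1 was lower in sorted cells, the homeobox gene EMX2 (-0.61 ± 0.14, adjusted p = 0.0127), which lost its call with FPKM as deposited.

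Of 10 mesenchymal genes, 5 were lower and none higher in sorted cells with both labels as 1 group, where 7.92% of all genes tested were lower. VIM, the gene of the intermediate filament vimentin, fell by 1.75 ± 0.18 on the log2 scale (adjusted p = 7.02e-05), and S100A4, a calcium-binding protein of motile cells, fell by 2.66 ± 0.36 (adjusted p = 0.000430). The matrix genes SPARC and FN1 fell by 1.35 and 1.57. Taken singly, 4 of the 10 were lower with sh-B7-H3 (1), and 6 were lower and 1 higher with the label sh-B7-H3 (2). The higher one was the collagen cross-linking enzyme LOX, at 1.25 ± 0.27 (adjusted p = 0.0152) with (2) and -0.26 ± 0.16 (adjusted p = 0.398) with (1). In bulk tumors 4 of the 10 were lower, VIM among them at -1.25 ± 0.16 (adjusted p = 0.00504), and 1, LOX, was higher by 1.53 ± 0.14 (adjusted p = 0.00245). These counts and medians are descriptions of lists that were chosen with earlier results of these data known.

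Of 12 partners of cadherins at the adherens junction, 9 were tested in sorted cells with both labels and 3 were called, where 20.5% of all genes were. CTNNB1, which encodes beta-catenin, was 456 ± 40.6 (SD, n = 3) scaled FPKM with sh-NC, 276 ± 8.51 with sh-B7-H3 (1) and 222 ± 4.17 with the label sh-B7-H3 (2), and fell by 0.87 ± 0.13 on the log2 scale (adjusted p = 0.000855). VCL, the actin-binding protein vinculin, fell by 0.68 ± 0.16 (adjusted p = 0.0125), and AFDN, a nectin-bound scaffold, rose by 0.94 ± 0.19 (adjusted p = 0.00606). CTNNA1 (alpha-catenin) differed by 0.29 (interval -0.12 to 0.70), JUP (plakoglobin) by 0.26 (interval -0.13 to 0.65) and CTNND1 (a delta-catenin that stabilises cadherins at the surface) by 0.06 (interval -0.20 to 0.31). In bulk tumors CTNNB1 fell by 0.55 ± 0.09 (adjusted p = 0.00992), while AFDN (1.07, adjusted p = 0.00573) and PKP4, an armadillo protein of junctions (0.39, adjusted p = 0.0339), rose. With FPKM as deposited 1 of the 9 partners tested was higher there and 0 lower. The call of CTNNB1 and at least 1 of those of AFDN and PKP4 were thus lost.

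Few further cadherins, EMT factors and corepressors were called in sorted cells with both labels, where 20.5% of all genes were called. With few genes tested in each list, the counts were not set apart from that share. Of 18 other cadherin genes, 3 reached the filter in sorted cells and none was called with both labels. CDH16, the kidney-specific cadherin, differed by 0.40 ± 0.13 (adjusted p = 0.0584) there, or 0.46 without (2) replicate 1 (adjusted p = 0.0308), and was higher by 0.70 ± 0.20 in bulk tumors (adjusted p = 0.0470). With FPKM as deposited it passed the threshold in sorted cells and not in bulk tumors. CDH5, the endothelial cadherin, was tested in bulk tumors, where it differed by -0.01 (adjusted p = 0.972). Of 12 other EMT factors, 8 were tested in sorted cells with both labels and 1, the chromatin protein HMGA2, was lower, by 0.57 ± 0.15 on the log2 scale (adjusted p = 0.0225). With sh-B7-H3 (1) taken singly the 1 called was TWIST2 (-1.05 ± 0.26, adjusted p = 0.0343), and with the label sh-B7-H3 (2) none was. In bulk tumors TWIST2 differed by -0.92 ± 0.27 (adjusted p = 0.0513) and was not called. Of 9 corepressors that the ZEB and SNAI factors recruit, all were tested and 1, CTBP2, was higher (0.41 ± 0.10, adjusted p = 0.0130).

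**Figure D4:**
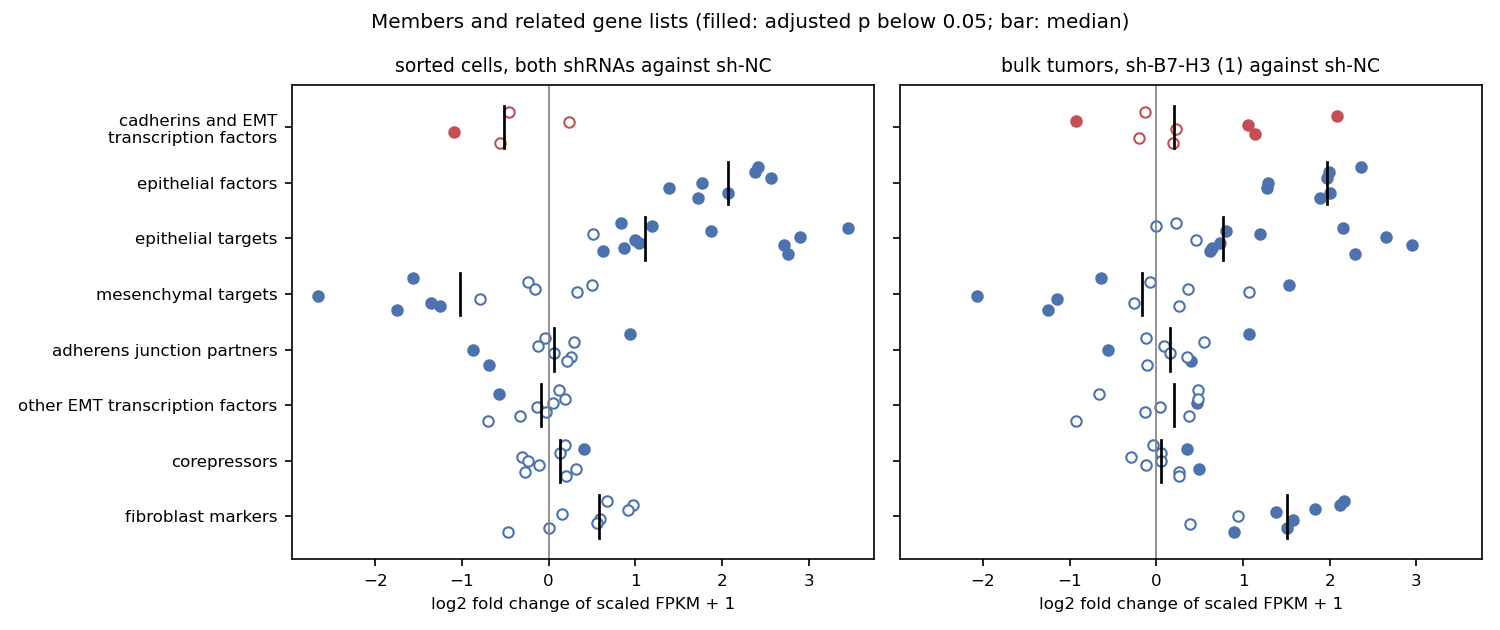
Log2 fold changes of scaled FPKM + 1 (horizontal axes) for the tested genes of the members and of 7 related lists (vertical axis), in sorted cells with both shRNA labels against sh-NC (left) and in bulk tumors, label (1) against sh-NC (right), with 1 point a gene, filled at adjusted p below 0.05, and a bar at each list's median. All 7 epithelial factors lie above 1 in both panels, 5 of 10 mesenchymal targets are filled on the left side of 0 in sorted cells, and 7 of 9 fibroblast markers are filled on the right side in bulk tumors.

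The genes most like each member over the 15 libraries were found among 12194 genes by Pearson's r of log2(scaled FPKM + 1), as a description of libraries that share their groups and sort. CDH11 was nearest to PRSS35, ADAMTS12 and SULF1 (r = 0.98 for each), and PRRX1 to COL1A2, RCN3 and SULF1 (r = 0.96 for each), so that SULF1, a sulfatase of the cell surface, was near both. TWIST1 was nearest to CACNG7 and SNHG18 (r = 0.97) and MRC2 (r = 0.97), and SNAI1 to the pericyte and fibroblast receptor PDGFRB (r = 0.95), GNL1 and PBX2. ZEB1 was nearest to CNTF (r = 0.97), JCAD and SLC24A3, and ZEB2 to RNF20 (r = 0.98), SMAP2 and KRI1. CDH1 was nearest to CAPRIN1 (r = 0.94), NLN and CKAP5. CDH6 was nearest to SERPINA7 (r = 0.97), ABCB1B and DNAJC12, and the low CDH2 to CDKN2A (r = 0.97), ALDH1A2 and EPDR1, while SNAI2, at 0 in many libraries, was nearest to KCNJ2 (r = 0.96), BMYC and TMEM204.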

How the data were processed

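RNA sequencing covered 15 libraries, 3 in each of 5 groups taken from the sample labels. The deposited table holds FPKM for 24917 entries, of which 26 with date-like symbols were left out. A second deposited table of the authors holds log2(FPKM + 1) for 1000 genes, none of them a member. The submitters' processing notes name mm10, and the methods name the VIPER pipeline. The aligner and annotation are not given in the sources used here. The labels and the methods name different library kits. No column was left unmapped (0).

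FPKM were divided by median-ratio factors (0.65 to 1.18) computed from the 9872 genes that reached 1 FPKM throughout, and log2(scaled FPKM + 1) was compared in limma 3.58.1 under R 4.3.3, its variance prior following the mean level, on genes with 1 scaled FPKM in 3 libraries or more. P-values were adjusted by Benjamini-Hochberg over all genes tested. Only the groups compared entered a fit. Exact two-sided permutation tests over libraries and all tables were made in Python 3.11.15 (numpy 2.4.6, pandas 2.3.3, matplotlib 3.10.9). Depth relative to the deepest library came from the spacing of low FPKM values, and reads are unknown, so no counting interval is given. The fits were tested on simulated data.

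The members, gene lists and tests were chosen with earlier results of these data known. All members are named, from each list up to 4 genes with the smallest adjusted p in sorted cells with both shRNAs, 4 catenin genes in any case, and the 3 genes most like each member. Genes of lists named for bulk tumors or other reasons (COL1A1, POSTN, LOX, PKP4, CDH16, CDH5, PTPRC, CD3E, THY1, DCN) were chosen after their values were seen. So were FCER1G, TYROBP, C1QA, C1QB, C1QC, PDGFRB and TWIST2. Same-numbered replicates deviated together for sorted (1) and (2) (r from 0.43 to 0.51 over 3 pairs) and not elsewhere. Between sorted (1) and sorted sh-NC, libraries with different numbers reached r = 0.64, so values of this size do not establish a pairing. Alternatives were FPKM as deposited, a pseudocount of 0.1, no filter, replicate blocks, 1 fit of all libraries and leaving out each library. Leaving out a library with the tested genes held fixed, and list counts without sorted (2) replicate 1, were chosen after seeing the data.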

Additional observations from a re-analysis of the deposited data

Results flagged for a closer look

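In the 6 sorted libraries labelled sh-B7-H3, CDH11 was 2.12 scaled FPKM in replicate 1 of sh-B7-H3 (2) and at most 0.356 in the other libraries, a gap that stood out from the range of the group (Dixon's ratio 0.929). SNAI2 was 0.221 in the same library and at most 0.0269 in the others (ratio 0.879). This is the library with leukocyte markers at 278 and endothelial markers at 23.4. Chance alone marks about 1 in 20 groups in this way.

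The CDH11 difference between the sh-B7-H3 (1) label and sh-NC was -2.16 log2 units in sorted cells relative to bulk tumors (interaction, adjusted p = 0.0102), with overlapping sorted groups and bulk groups that did not overlap. CDH11 was below 1 scaled FPKM in all 6 sorted libraries and entered the test through the bulk libraries alone, where CD276 did not detectably differ. The CDH6 level of sorted cells differed between the labels (1) and (2) by -2.75 log2 units (adjusted p = 0.0370), with (1) below and (2) above the sh-NC libraries.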

How the results depend on the processing

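Of 523 values of single members under the alternatives listed in the methods, 484 kept their direction and side of the threshold, 18 newly passed, 13 no longer passed and 8 turned direction. The turned values were all of genes that were not called. They were CDH6 for both labels in sorted cells at a pseudocount of 0.1 (-0.21) and without (2) replicate 2 (-0.19) or 3 (-0.18; range over left-out libraries up to 0.53), ZEB1 between bulk and sorted sh-NC without sorted sh-NC replicate 1 (0.0035; lowest -0.31), and the SNAI1 interaction without bulk sh-NC replicate 3 (-0.08), bulk (1) replicate 3 (-0.11), sorted sh-NC replicate 2 (-0.01) or sorted (1) replicate 3 (-0.03; highest 0.23). Counts of members called moved as follows, beside the main counts of 1, 1, 1, 1, 4, 2, 5 and 1. With FPKM as deposited, 2 were called for (2) in sorted cells (CDH6 and ZEB1) and 1 for bulk against sorted sh-NC (SNAI1). Without the filter, 2 were called for sorted (1) (CDH2 and CDH6), 0 for (1) against (2), and 4 for bulk against sorted sh-NC. In 1 fit of all 15 libraries, 2 were called for sorted (1) (ZEB1 and ZEB2, with CDH6 at an adjusted p of 0.0655), 3 for (2), 3 for both labels and 0 for the interaction.

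When each library was left out in turn, the counts ranged from 0 to 2 for sorted (1), 1 to 2 for (2), 1 to 3 for both, 0 to 1 for (1) against (2), 2 to 3 in bulk tumors, 0 to 3 and 2 to 5 for bulk against sorted with sh-NC and (1), and stayed at 1 for the interaction. Part of this is by construction, since a gene near 1 scaled FPKM leaves the test with a library. With the tested genes held fixed the ranges were 1 to 3, 1 to 2, 1 to 3, 0 to 1, 2 to 4, 1 to 3, 4 to 5 and 1 to 2. The extra calls against sorted sh-NC came without sorted sh-NC replicate 3 (CDH1, ZEB1, ZEB2) or (2) replicate 1 (CDH6), that of the interaction without bulk (1) replicate 3 (TWIST1), and ZEB1 between (1) and (2) was gained without (1) replicate 1. With the filter repeated, calls also appeared between bulk and sorted sh-NC for ZEB2 without sorted sh-NC replicate 1 (0.50, adjusted p = 0.0314) and CDH1 without replicate 3 (-0.71, adjusted p = 0.0499). With the tested genes held fixed, ZEB2 was again called (adjusted p = 0.0319) and CDH1 was not (lowest adjusted p = 0.0506). PRRX1 between bulk and sorted sh-NC lost its call without bulk sh-NC replicate 2 or 3 or sorted sh-NC replicate 2, and SNAI1 between bulk and sorted (1) without sorted (1) replicate 1. The cause was not tested.

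Under the replicate block, TWIST1 in bulk tumors (1.14, adjusted p = 0.0523) lost its call, leaving 3 members called there, and no other call of a member changed. Same-numbered libraries deviated together only for sorted (1) and (2), where 1864 genes were called under the block in place of 382. FPKM as deposited shifted the median log2 fold change of all genes to 0.20 for both labels in sorted cells, 0.17 for (1) and 0.21 for (2), to -0.23 between bulk and sorted (1) and to 0.12 for the interaction. The share of higher genes among those called then moved from 61.4% to 86.4% (both), 67.3% to 84.2%, 61.1% to 83.2%, 60.1% to 70.2% (bulk), 61.5% to 79.8% and 55.2% to 22.8%, and the count called in bulk tumors fell from 2520 to 961. Without sorted (2) replicate 1, counts of the lists in sorted cells changed by at most 1 gene in either direction. With FPKM as deposited, mesenchymal genes stayed at 5 of 10 lower and epithelial targets at 11 of 12 higher in sorted cells, while VCL and HMGA2 were no longer called. Levels under 1 scaled FPKM rest on few reads.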
